A study of Mus musculus with 204 samples.

Results

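Elovl6, Acss2, Acss1, Pklr and Nr1h3, the gene of the nuclear receptor LXR alpha, were followed through 21 mouse tissues. They were chosen by name as genes of fatty acid synthesis and its control, and are 5 of the 13153 genes used. The series holds 204 RNA sequencing libraries, 102 from diet-induced obese (DIO) and 102 from lean mice. All mice were wild-type C57BL/6J males, the common inbred laboratory strain. DIO mice ate a diet with 60% fat for 10 weeks, and lean mice stayed on chow with 13.1% fat. The labels put the start of the fat-rich diet at 4 weeks of age but the age at receipt at 6 to 12 weeks, so age is uncertain. Each tissue had 5 DIO and 5 lean libraries, except subcutaneous fat (3 and 5), mesenteric fat (4 and 3) and the extensor digitorum longus muscle (EDL; 5 and 4). The series names 5 lean and 5 DIO mice, and no label ties a library to a mouse, so tissues may share mice. Nothing in the labels says whether libraries of a group came from separate extractions, and the p-values measure only the spread between them.

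In the cytosol, fatty acids are built from acetyl-CoA and then lengthened in the endoplasmic reticulum. ACSS2 makes acetyl-CoA from acetate in the cytosol and nucleus, and ACSS1 does so in mitochondria. ELOVL6 is the elongase that takes palmitate to stearate. Pklr encodes the pyruvate kinase of liver and red cells, the last enzyme of glycolysis, and its gene is a standard target of the sugar-sensing factor ChREBP. LXR alpha is a receptor for oxysterols that pairs with RXR and drives genes of cholesterol export and, with SREBP-1c, of fatty acid synthesis. Insulin and sugar feeding raise this pathway in liver and fat, and polyunsaturated fat lowers it.

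Values are CPM, the reads of a gene scaled to a library of 1000000 reads, given in the order of the replicate numbers, DIO first. Library totals ran from 6580090 to 129730968 reads (median 20720854), and the next highest after the largest was 30904416. The table held 13.0% to 23.1% of a library's reads. Its genes with a known position lay on chromosomes 1, 2, 3 and X, with 413 on chromosome 4, and on no other chromosome. Genes elsewhere could not be followed, and all shares, lists and comparisons over all genes below refer to this part of the genome. A change is the DIO minus lean difference of log2(CPM + 1) ± the standard error of limma, a linear model that shares information on spread over genes. It understates changes of genes near 1 CPM. A gene rose or fell where its Benjamini-Hochberg adjusted p was below 0.05 over all genes tested in the tissue, those with a mean of at least 1 CPM. By marker genes of cell types, 10 libraries stood apart within their tissue. The adrenal cortex enzyme gene Hsd3b1 was at 0.173, 0.0833 and 0 CPM in adrenal DIO 1, DIO 2 and lean 1, against 4239 to 12653 CPM in the others. Summed lymphoid markers stood high in subcutaneous lean 2 and 3, mesenteric DIO 2 and retroperitoneal DIO 3, and skeletal muscle markers in brown fat (BAT) DIO 5 and lean 2 and retroperitoneal lean 2. The changes of members in these 5 tissues are also given without such libraries where that moved them. In CPM the median change of all genes was itself above 0.1 in size in mesenteric fat (0.43), retroperitoneal fat (0.23), stomach (0.16), epididymal fat (eWAT; 0.15), duodenum (0.15), EDL (-0.13), adrenal (0.12) and liver (0.11). Rescaled values therefore stand beside the calls they touch.

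Of 105 pairs of a member and a tissue, 94 passed the filter on low values, and 17 passed the test, 2 as rises and 15 as falls. Elovl6 fell in 7 of 21 tissues and Acss2 in 6 of 21. Acss1 rose in 1 and fell in 1 of 20 tissues tested, Pklr fell in 1 of 11, and Nr1h3 rose in 1 of 21. The falls of Elovl6 and Acss2 shared all 5 fat depots. In 13 tissues no member passed by limma. There, 9 pairs had an unadjusted p below 0.05, and edgeR called 0 and DESeq2 4 of the pairs. The 17 calls are set against the share of all genes called in the same tissue and direction, printed with each tissue. Over all genes limma called 6626 gene and tissue pairs, 4896 as rises and 1730 as falls. Each tissue had 2639 to 3525 genes tested.

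**Figure D1:**
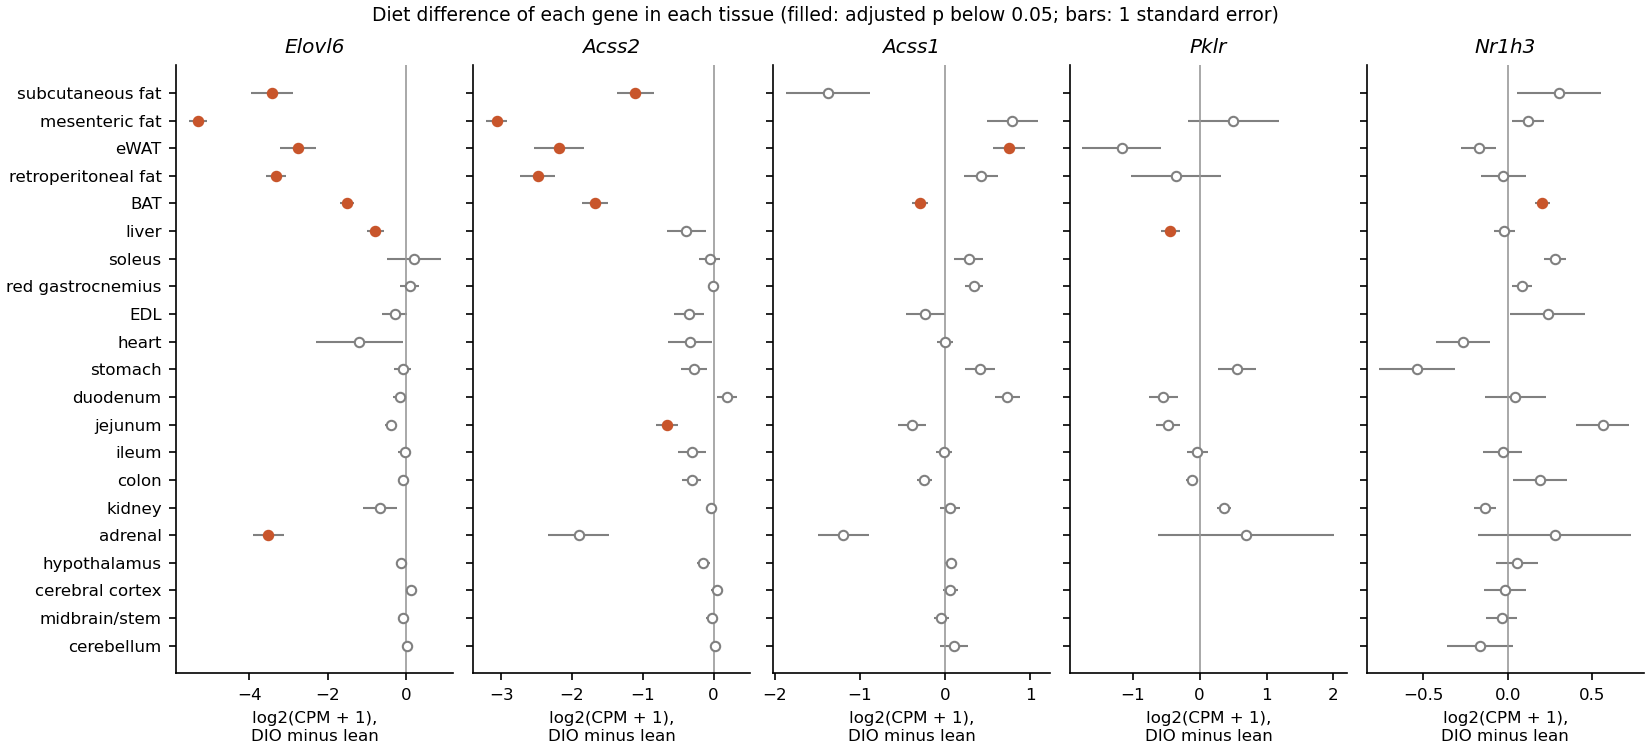
Change of each member (panels) in each of 21 tissues (vertical axis) as the DIO minus lean difference of log2(CPM + 1) on axes scaled per panel, with bars of 1 standard error, filled points past adjusted p 0.05 and no point where the gene was under the filter. The falls of Elovl6 and Acss2 run through the 5 fat depots, from -5.30 for Elovl6 in mesenteric fat to -1.11 for Acss2 in subcutaneous fat, while Nr1h3 stayed between -0.54 and 0.56 in every tissue.

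The promoters of the pair that fell together are shown because Elovl6 and Acss2 shared 5 depots with a fall. Each run covers 250 bases on the plus strand of GRCm38.p6, from RefSeq, at chr3:129532136-129532385 for Elovl6 and chr2:155517793-155518042 for Acss2. The deposited files name no genome build. Capitals mark the motifs found on either strand.
Elovl6 promoter: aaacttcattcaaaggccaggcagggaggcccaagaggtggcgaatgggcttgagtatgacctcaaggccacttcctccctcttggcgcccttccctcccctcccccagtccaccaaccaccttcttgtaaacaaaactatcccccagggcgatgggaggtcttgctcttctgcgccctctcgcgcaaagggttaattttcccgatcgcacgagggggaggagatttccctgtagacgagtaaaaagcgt
Acss2 promoter: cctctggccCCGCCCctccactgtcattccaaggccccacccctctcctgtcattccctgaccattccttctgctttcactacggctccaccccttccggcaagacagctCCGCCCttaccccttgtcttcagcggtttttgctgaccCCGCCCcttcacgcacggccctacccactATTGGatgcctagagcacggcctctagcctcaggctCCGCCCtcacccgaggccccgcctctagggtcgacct

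In the Acss2 run the capitals are 4 Sp1 boxes (GGGCGG, here read from the other strand), which begin at -241, -140, -102 and -37 from the RefSeq start, and 1 NF-Y box (CCAAT, also on the other strand) at -73. Another Sp1 box begins 7 bases after the start, beyond the printed run. NF-Y and Sp1 are known partners of SREBP at sterol-regulated promoters. Of 32851 RefSeq promoters of 300 bases, 35.7% held an Sp1 box, 2.71% held 5 or more, and 37.4% held an NF-Y box. The Elovl6 run had none of the motifs searched. Neither promoter held the sterol element TCACNCCAC (1.24% of promoters), the E-box CACGTG (7.15%) or a DR4, the direct repeat read by LXR with RXR (1.75%). The motifs may overlap one another, both strands were searched, and a match or its lack is a description of these letters alone.

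Elovl6 had the largest change of any member, and it lay in mesenteric fat. Its level was 47.7, 28.2, 51.3 and 37.6 CPM in DIO and 1331, 2029 and 1575 CPM in lean mesenteric libraries. The lowest lean library stood far above the highest DIO library. The means were 41.2 ± 10.4 CPM (SD, n = 4) and 1645 ± 355 CPM (SD, n = 3), a ratio of 39.9 in favour of lean, and Elovl6 fell by 5.30 ± 0.24 on the log2 scale (limma adjusted p = 1.4e-04; rescaled -5.71). In mesenteric fat 5.49% of genes tested fell and 29.7% rose. Without DIO 2, the library with lymphoid markers, the change was -5.13.

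In subcutaneous fat Elovl6 was at 52.9, 34.6 and 44.6 CPM in DIO and 219, 1291, 498, 592 and 283 CPM in lean libraries. The groups did not overlap, although the lean libraries spanned a wide range and the highest of them was the lymphoid-marked lean 2. Elovl6 fell by 3.42 ± 0.53 (adjusted p = 0.00686; -2.91 without lean 2 and 3), in a depot where 3.66% of genes fell and 8.77% rose. In retroperitoneal fat the libraries held 32.8, 33.4, 19.5, 36.8 and 25.6 CPM in DIO and 210.0, 390.2, 386, 399.7 and 184 CPM in lean. Here too every DIO library was below every lean one, and the fall was 3.32 ± 0.25 (adjusted p = 2.2e-06; rescaled -3.59; -3.09 without DIO 3 and lean 2), with 9.04% of genes falling and 32.2% rising. In eWAT, the visceral depot beside the epididymis, levels were 8.35, 29.4, 16.2, 21.2 and 44.4 CPM in DIO and 94.0, 327, 86.0, 247 and 102 CPM in lean. The lean libraries fell into a group of 2 high and 3 lower values, all above the DIO libraries, and Elovl6 fell by 2.76 ± 0.45 (adjusted p = 2.7e-04; rescaled -2.94). In eWAT 17.4% of genes fell and 34.8% rose, so a call there was common in itself.

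In BAT, the heat-making depot, the fall of Elovl6 was smaller in size than in 3 of the 4 white depots. Levels were 761, 793, 472, 499 and 731 CPM in DIO and 1264, 2208, 1860.0, 2024 and 1839.9 CPM in lean libraries, again without overlap. Elovl6 fell by 1.51 ± 0.18 (adjusted p = 7.1e-05; rescaled -1.62; -1.48 without DIO 5 and lean 2), a ratio of means of 2.82. In BAT 11.7% of genes fell and 30% rose. The size of the Elovl6 change differed between the white depots (F test of diet by tissue, adjusted p = 0.0203) and between all 5 depots (adjusted p = 7.7e-05), in tests that called 31.9% and 55.6% of genes. Between pairs of depots, the mesenteric fall exceeded that of eWAT by a log2 difference of -2.54 ± 0.64 (adjusted p = 0.0107; 10.9% of genes called). The mesenteric fall was not separated from the subcutaneous (subcutaneous minus mesenteric 1.88 ± 0.68, adjusted p = 0.0547) or the retroperitoneal one (mesenteric minus retroperitoneal -1.98 ± 0.64, adjusted p = 0.172). The BAT change was smaller in size than the mesenteric one by 3.79 ± 0.59 (adjusted p = 6.2e-05; 8.99%), the subcutaneous one by 1.91 ± 0.57 (adjusted p = 0.0291; 9.3%) and the retroperitoneal one by 1.81 ± 0.53 (adjusted p = 0.0113; 24.7%). Without the libraries that stood apart, the difference between BAT and subcutaneous fat no longer passed (1.42 ± 0.59, adjusted p = 0.139). Against eWAT the BAT difference of 1.25 ± 0.53 did not pass (adjusted p = 0.0629; 35.8%) but did without those libraries (1.27 ± 0.52, adjusted p = 0.0448).

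Acss2 fell in all 5 fat depots too. In mesenteric fat it was at 203, 141, 196 and 173 CPM in DIO and 1372, 1491 and 1593 CPM in lean libraries, with both groups tight and far apart. Acss2 fell there by 3.06 ± 0.15 (adjusted p = 1.4e-04; rescaled -3.47; -2.96 without DIO 2), a ratio of 8.34. In retroperitoneal fat it was at 202, 179, 75.0, 172 and 203 CPM in DIO and 848, 1037, 943, 943 and 688 CPM in lean. DIO 3, the library with lymphoid markers, was the lowest, and the groups stood apart with or without it: the fall was 2.49 ± 0.25 (adjusted p = 1.6e-05; rescaled -2.76; -2.16 without DIO 3 and lean 2). In eWAT it was at 54.7, 164, 65.4, 94.1 and 197 CPM in DIO and 347, 737, 365, 679 and 345 CPM in lean, and fell by 2.18 ± 0.36 (adjusted p = 2.8e-04; rescaled -2.37). The DIO libraries with the most Acss2 in eWAT, replicates 2 and 5, were also the 2 with the most Elovl6.

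Subcutaneous libraries held 312, 227 and 281 CPM of Acss2 in DIO and 530.1, 794, 428, 821 and 462 CPM in lean, which did not overlap, and the fall was 1.11 ± 0.26 (adjusted p = 0.0328; -1.11, adjusted p = 0.00440, without lean 2 and 3). Leaving out DIO 1, 2 or 3 or lean 2 in turn gave changes of -1.21 to -0.98 with adjusted p of 0.0602 to 0.137. In BAT Acss2 was at 361, 384, 233, 235 and 312 CPM in DIO and 704, 1289, 1132, 919.8 and 825 CPM in lean, also apart, and fell by 1.67 ± 0.18 (adjusted p = 4.2e-05; rescaled -1.78; -1.58 without DIO 5 and lean 2). The change of Acss2 differed between white depots (F test, adjusted p = 0.0194) and over all 5 (adjusted p = 0.00519). The subcutaneous change was smaller in size than the mesenteric one by 1.96 ± 0.50 (adjusted p = 0.0192; 15.8% of genes called) and the retroperitoneal one by 1.38 ± 0.45 (adjusted p = 0.0339; 21.3%). Without the libraries that stood apart, the second of these no longer passed (1.06 ± 0.45, adjusted p = 0.178). The subcutaneous change was not separated from that of eWAT (1.08 ± 0.45, adjusted p = 0.0654) or BAT (BAT minus subcutaneous -0.56 ± 0.43, adjusted p = 0.421). The BAT change was smaller than the mesenteric one by 1.40 ± 0.44 (adjusted p = 0.0398). The mesenteric and retroperitoneal changes of Acss2 were not separated (-0.58 ± 0.47, adjusted p = 0.699; 0.678%), nor were those of eWAT and retroperitoneal fat (0.30 ± 0.42, adjusted p = 0.869; 0.0308%). The change of Elovl6 relative to Acss2 within libraries passed in no tissue by an exact two-sided permutation test over libraries (lowest adjusted p = 0.167, for eWAT, retroperitoneal fat and adrenal; -2.31 in subcutaneous fat, adjusted p = 0.188). At an unadjusted p below 0.05 the count was 4 of 21. In mesenteric fat the difference was -2.24 (adjusted p = 0.240). The unadjusted permutation p was 0.0571 there, 0.0357 in subcutaneous fat and 0.00794 in adrenal, the lowest that these library numbers allow. A tissue could thus fail whatever its difference, and the lack of a call does not show that Elovl6 and Acss2 fell alike.

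**Figure D2:**
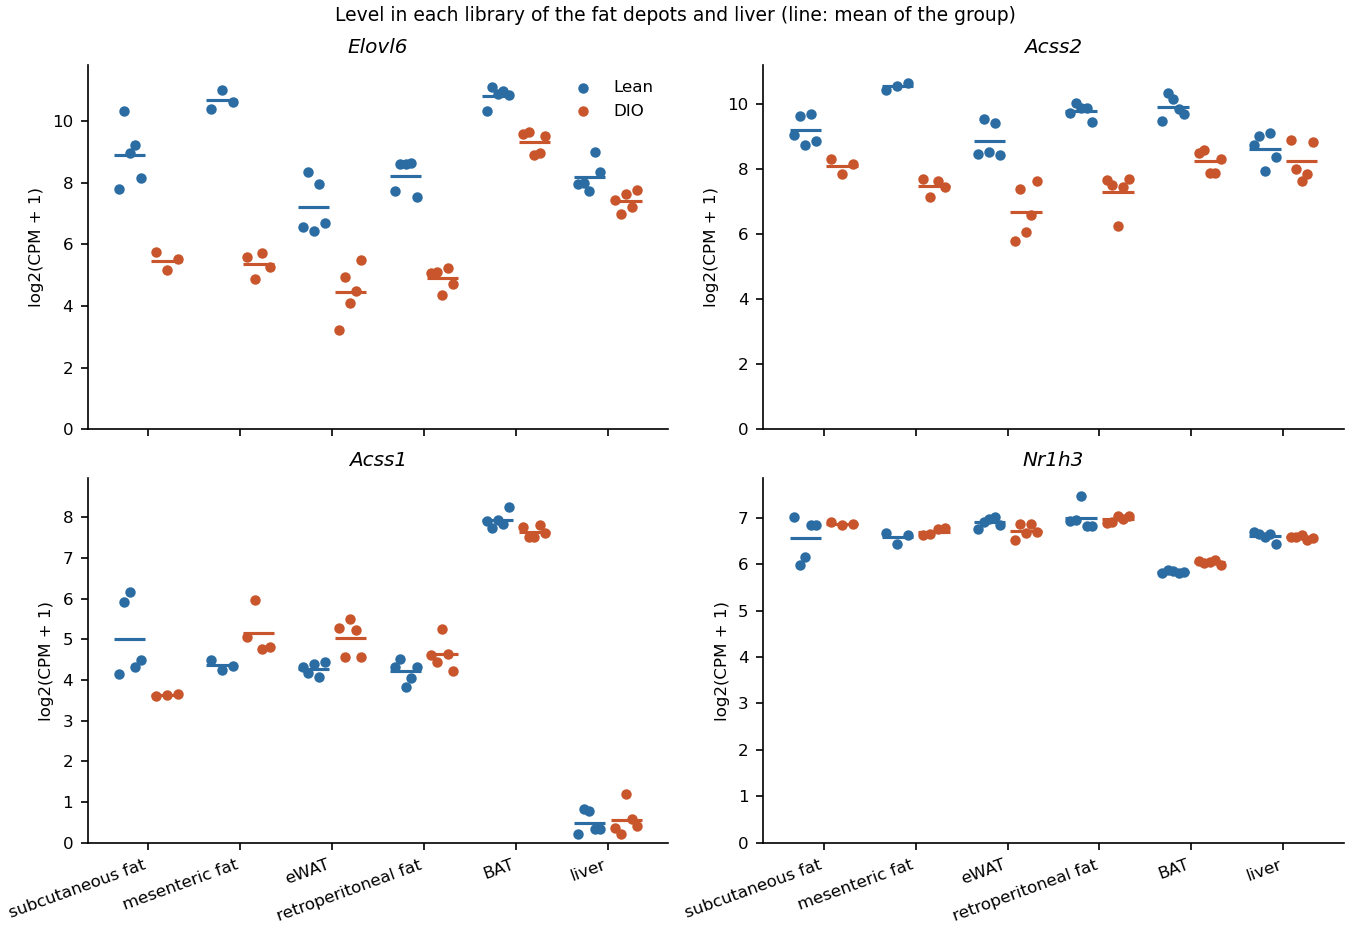
Level of Elovl6, Acss2, Acss1 and Nr1h3 in each library of 5 fat depots and liver, as log2(CPM + 1), DIO and lean side by side, with a line at each group's mean. Elovl6 and Acss2 of DIO libraries lie below all lean libraries in each fat depot but overlap with them in liver, and the Nr1h3 groups overlap everywhere except in BAT.

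Acss1, the mitochondrial counterpart of Acss2, rose in eWAT and fell in BAT. In eWAT Acss1 was at 37.9, 22.6, 43.9, 36.3 and 22.6 CPM in DIO and 19.0, 16.9, 20.1, 15.7 and 20.6 CPM in lean libraries. Every DIO library was above every lean one. In this depot 34.8% of genes tested rose, and Acss1 rose by 0.75 ± 0.19 (adjusted p = 0.00516; rescaled 0.57, adjusted p = 0.0177). In mesenteric fat it was at 32.3, 62.0, 26.0 and 27.1 CPM in DIO and 21.5, 17.9 and 19.3 CPM in lean. The groups did not overlap either, but the high DIO 2 library widened the spread: the change of 0.79 ± 0.29 had adjusted p = 0.0707, and without DIO 2 it was 0.52 (adjusted p = 0.00740). Rescaled with all libraries it was 0.40 (adjusted p = 0.329). In retroperitoneal fat the DIO range of 17.6 to 36.9 CPM overlapped the lean range of 13.2 to 22.1 CPM (0.42 ± 0.20, adjusted p = 0.105; 0.35, adjusted p = 0.123, without DIO 3 and lean 2).

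Acss1 had lower means in DIO in subcutaneous fat and BAT. In subcutaneous fat the 3 DIO libraries held 11.3, 11.3 and 11.6 CPM and the lean ones 16.9, 59.2, 70.3, 18.8 and 21.5 CPM. Lean 2 and 3, the libraries with lymphoid markers, were the high ones. With all libraries the change was -1.37 ± 0.50 (adjusted p = 0.114), and without those it was -0.69 (adjusted p = 0.00196). In BAT the libraries held 217, 181, 181, 225 and 193 CPM in DIO and 238, 213, 242, 228 and 304 CPM in lean, which overlapped, and Acss1 fell by 0.29 ± 0.10 (adjusted p = 0.0296; rescaled -0.40; -0.33 without DIO 5 and lean 2). Leaving out DIO 2, 3 or 5 or lean 3 or 5 in turn gave changes of -0.29 to -0.21 with adjusted p of 0.0525 to 0.0733. The Acss1 change differed between white depots (F test, adjusted p = 0.00273), and all 5 depots (adjusted p = 2.0e-04). The subcutaneous change minus the mesenteric one was -2.17 ± 0.49 (adjusted p = 0.0114), minus the eWAT one -2.12 ± 0.45 (adjusted p = 9.6e-04; 33.3% of genes called) and minus the retroperitoneal one -1.80 ± 0.45 (adjusted p = 0.00903), all on the log2 scale. Without the libraries that stood apart, subcutaneous lean 2 and 3 among them, these were -1.21 ± 0.27 (adjusted p = 0.0146), -1.44 ± 0.24 (adjusted p = 1.1e-04) and -1.04 ± 0.26 (adjusted p = 0.0132), smaller but still past the threshold. The BAT change lay below that of eWAT (-1.04 ± 0.37, adjusted p = 0.0272). It was not separated from that of mesenteric (-1.08 ± 0.41, 0.0880), retroperitoneal (-0.71 ± 0.37, 0.163) or subcutaneous fat (1.08 ± 0.40, 0.0835). Without the libraries that stood apart the first 2 of these passed (-0.85 ± 0.24, adjusted p = 0.0191, and -0.68 ± 0.22, 0.0224). The difference from subcutaneous fat did not (0.36 ± 0.24, 0.409).

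Measured within the same libraries, the log2 ratio of Acss2 over Acss1 was 1.66 ± 1.21 in DIO and 4.59 ± 0.70 in lean (SD, n = 5 and 5) in eWAT, a difference of -2.93. In retroperitoneal fat it was 2.67 ± 0.96 in DIO and 5.58 ± 0.37 in lean (SD, n = 5 and 5), a difference of -2.91. BAT had a smaller difference of -1.38, from 0.59 ± 0.39 in DIO and 1.96 ± 0.48 in lean (SD, n = 5 and 5). These 3 depots each had adjusted p = 0.0317 by an exact two-sided permutation test over libraries, with 20 tissues in the family, as had stomach (difference -0.69) and duodenum (-0.54). Mesenteric fat had a difference of -3.86, but 4 against 3 libraries allow no p below 0.0571, the value found (adjusted p = 0.163). In subcutaneous fat the difference was 0.27 (adjusted p = 0.844), and without lean 2 and 3 it turned to -0.42 (adjusted p = 0.429). The ratio within a library does not depend on the scaling of its CPM apart from the added 1. Its height cannot be read as more of one enzyme's RNA than of the other's, because CPM is not divided by gene length. Without the 10 libraries named above no tissue passed (lowest adjusted p = 0.0529), since fewer libraries allow only larger p-values or change the family's adjustment.

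**Figure D3:**
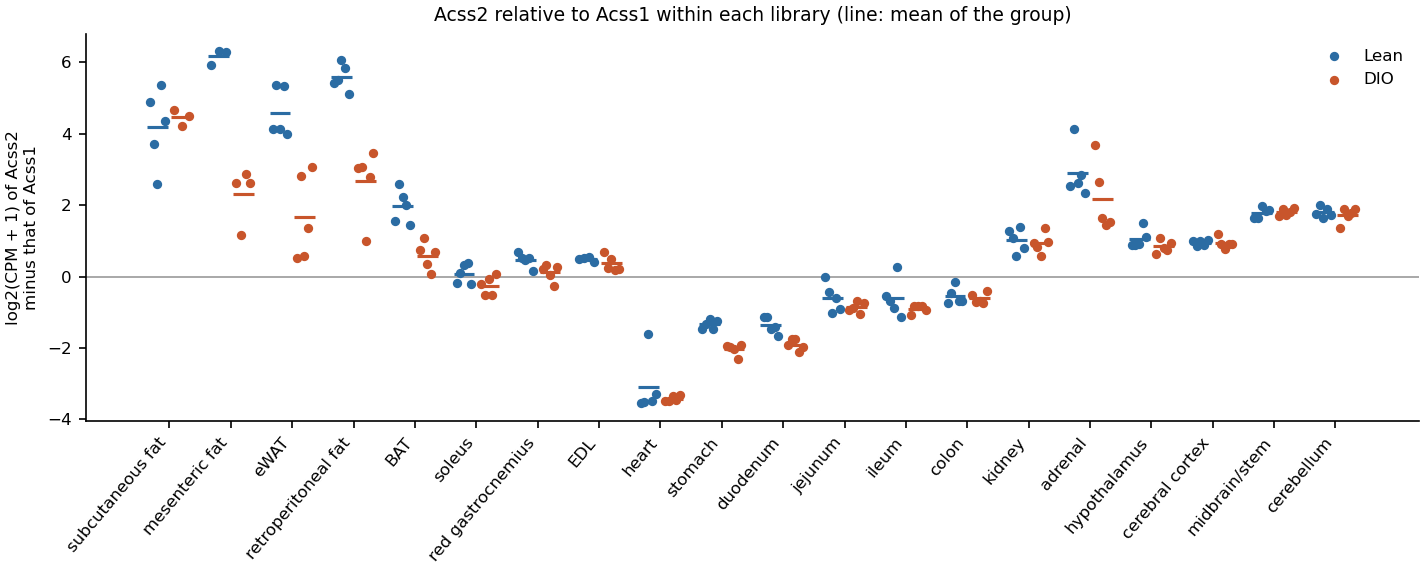
Log2 ratio of Acss2 over Acss1, from log2(CPM + 1), in each library by tissue, DIO and lean in separate colours with a line at each mean, for 20 tissues (liver is left out, as Acss1 was under the filter there). DIO libraries lie below lean libraries in mesenteric, epididymal and retroperitoneal fat, BAT, stomach and duodenum, and the groups overlap in subcutaneous fat. Heights are not scaled by gene length, so only differences between libraries can be read.

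Marker genes of other cells moved with these falls, and their part in the results was not tested. The summed level of 3 adipocyte markers (Fabp4, Irs1, Adig) was 3797 to 10426 CPM in DIO and 12821 to 18889.7 CPM in lean eWAT, 5610.3 to 10381 against 12564 to 27676 in retroperitoneal fat and 6864 to 13613 against 13738 to 15238 in mesenteric fat. All 7 macrophage markers were detected, and their sum was 1729 to 5048 against 162 to 238 CPM in eWAT, 1321 to 4361 against 131 to 229.6 in retroperitoneal fat and 746 to 1121 against 133 to 190.2 in mesenteric fat. None of these ranges overlapped. In subcutaneous fat both sums overlapped, with adipocyte markers at 15664 to 17682 in DIO and 8685 to 21195 CPM in lean and macrophage markers at 281 to 411 and 112 to 716 CPM. BAT had adipocyte markers at 7486 to 8326 CPM in DIO and 7198 to 8481 CPM in lean, an overlap, beside falls of Elovl6 and Acss2 that had none. Its macrophage sum was 29.8 to 89.5 against 17.5 to 28.2 CPM. In bulk tissue, fewer cells of a type and less RNA per cell cannot be told apart.

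Neighbouring enzymes of the pathway were followed through 38 further genes in 6 lists, all chosen with earlier results of these data known. In mesenteric fat 7 of 37 rose and 11 fell, but after rescaling 0 rose and 16 fell, as the median gene had shifted by 0.43. All genes moved likewise, from 979 that rose and 181 that fell to 259 and 420. Falls led there: Pmvk, of cholesterol synthesis, changed by -1.54 ± 0.08, Gpd2, the mitochondrial glycerol phosphate dehydrogenase, by -2.53 ± 0.16, Nsdhl, of cholesterol synthesis, by -1.41 ± 0.12 and Pdhx, a subunit of pyruvate dehydrogenase, by -1.11 ± 0.11. The median change was -0.09 over the 37 listed genes. In the elongation and NADPH list 3 of 5 fell, in acetyl-CoA supply 3 of 4, and in glycerolipid synthesis 3 of 8 against 2 that rose.

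In eWAT 6 of the pathway genes rose and 12 fell of 37 (rescaled 6 and 17; all genes 1111 and 556, rescaled 877 and 808). Pltp, a phospholipid transfer protein and known LXR target, rose by 2.94 ± 0.23. Gpd2 changed by -1.85 ± 0.16, Mogat1, a monoacylglycerol acyltransferase, by -3.02 ± 0.34 and Pdha1, the pyruvate dehydrogenase subunit, by -1.29 ± 0.18. Retroperitoneal fat had 7 rises and 12 falls of 37 (rescaled 4 and 17; all genes 1023 and 287, rescaled 608 and 501), with Pltp at 2.13 ± 0.18, Gpd2 at -1.60 ± 0.16, Pdha1 at -1.13 ± 0.15 and the small GTPase gene Arl4c at 1.95 ± 0.28. Without its 2 doubted libraries the counts were 6 and 9. Pltp and Arl4c are also expressed by macrophages, whose markers were higher in the same DIO libraries; their part in these changes was not tested.

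In subcutaneous fat 2 of 35 pathway genes rose and 2 fell, and 2 and 1 did rescaled. Over all genes 278 rose and 116 fell there, and 211 and 120 did rescaled. Without lean 2 and 3 the list counts were 7 and 7. The count over all genes without those libraries is not given here, so this is not read as a result about the lists. Pltp changed by 1.79 ± 0.24, Gpd2 by -2.19 ± 0.32, Lpgat1, a lysophospholipid acyltransferase, by 2.07 ± 0.38 and Pdha1 by -0.85 ± 0.22. BAT had 7 rises and 13 falls of 34 (rescaled 5 and 16; all genes 832 and 325, rescaled 624 and 585). All 4 cholesterol synthesis genes (Pmvk, Nsdhl, Fdps and Ebp) fell there, led by Pmvk at -1.14 ± 0.12 and Nsdhl at -0.90 ± 0.12. Acsl3, an acyl-CoA synthetase, changed by -1.21 ± 0.15 and the lipin gene Lpin3 by 1.16 ± 0.11. The median change in BAT was -0.05 over the 34 listed genes tested beside 0.09 over all genes.

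In liver Elovl6 and Pklr fell, Acss2 and Nr1h3 did not pass, and Acss1 was nearly at 0. Elovl6 was at 173, 126, 195, 148 and 218 CPM in DIO and 247, 251, 209.9, 503 and 328 CPM in lean libraries. The highest DIO library overlapped the lowest lean one. Elovl6 fell by 0.79 ± 0.22 (adjusted p = 0.0205; rescaled -0.92), a ratio of 1.79, where 4.57% of genes fell and 19% rose. Leaving out DIO 2 or 4 in turn gave changes of -0.74 to -0.69 with adjusted p of 0.0539 to 0.0540. Pklr was at 494, 354, 389.8, 439 and 495 CPM in DIO and 498, 643, 465, 783 and 576 CPM in lean liver. The groups overlapped in part, and Pklr fell by 0.43 ± 0.14 (adjusted p = 0.0432; rescaled -0.56, adjusted p = 0.0295). For Pklr, leaving out DIO 2, 3 or 4 or lean 2, 4 or 5 in turn gave changes of -0.44 to -0.33 with adjusted p of 0.0678 to 0.101. Acss2, at 474, 253, 198, 227 and 454 CPM in DIO and 425, 514, 243, 545 and 327 CPM in lean liver, overlapped broadly (-0.39 ± 0.28, adjusted p = 0.339). Acss1 was under the filter, between 0.157 and 1.29 CPM over all 10 liver libraries. Nr1h3 spanned 91.2 to 98.5 CPM in DIO and 85.6 to 102 CPM in lean liver (-0.02 ± 0.06, adjusted p = 0.834).

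An index of 10 genes that parts libraries within several tissues also parted the diets in liver, at 0.26 to 0.50 in DIO and 0.58 to 0.93 in lean libraries (mean log2 level of 5 genes minus that of 5 others). With the index as a covariate Elovl6 in liver changed by -0.41 (adjusted p = 0.593) and Pklr by -0.18 (adjusted p = 0.745), so in liver the index and the diet cannot be told apart. The Elovl6 change in liver was smaller in size than in subcutaneous fat by 2.63 ± 0.55 (adjusted p = 5.3e-04; 15.8% of genes called), mesenteric fat by 4.51 ± 0.56 (adjusted p = 6.2e-08; 26.6%), eWAT by 1.97 ± 0.51 (adjusted p = 0.00160; 40.6%) and retroperitoneal fat by 2.53 ± 0.51 (adjusted p = 1.3e-04; 31.9%). Against BAT the Elovl6 difference of 0.72 ± 0.51 did not pass (adjusted p = 0.474; 9.89%). For Acss2 the liver change differed from that of mesenteric fat by 2.68 ± 0.46, retroperitoneal fat by 2.10 ± 0.41, eWAT by 1.79 ± 0.41 and BAT by 1.28 ± 0.41 (largest adjusted p = 0.0361). From subcutaneous fat it was not separated (0.72 ± 0.45, adjusted p = 0.286). The F test over liver and fat gave adjusted p = 6.4e-08 for Elovl6, 1.7e-05 for Acss2, 8.4e-05 for Acss1, 0.110 for Nr1h3 and 0.425 for Pklr, in a test that called 67.7% of genes. Acss1 was at 0.157 to 1.29 CPM in liver, and Pklr was low in fat. At such levels log2(CPM + 1) keeps any change small, so for these 2 genes the test does not compare liver with fat.

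Among the pathway genes in liver 14 of 38 rose and 1 fell (rescaled 9 and 1; all genes 515 and 124, rescaled 262 and 235). The fall was that of G6pdx, an NADPH-making enzyme of the pentose phosphate pathway, at -1.28 ± 0.23. Mogat1 rose by 2.54 ± 0.19, while it had fallen in eWAT. Rxrg, an RXR, rose by 0.87 ± 0.11 and Lpin3 by 0.49 ± 0.09. In the glycerolipid list 4 of 9 rose and none fell by limma.

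In lean mice Pklr averaged 593 ± 127 CPM in liver, 572 ± 128 in duodenum, 329.6 ± 66.2 in jejunum, 197 ± 36.0 in ileum, 87.4 ± 7.44 in colon, 41.1 ± 4.34 in kidney and 23.2 ± 11.3 in stomach (SD, n = 5 each). Liver and duodenum overlapped, and by medians duodenum came first. Of its 2 RefSeq promoters the downstream one is shown, because Pklr changed in liver and this run holds the letters known from sugar-responsive genes. It lies at chr3:89136373-89136622 on the plus strand of GRCm38.p6, and capitals mark a pair of partial E-boxes 5 bases apart and, after it, an NF-Y box read from the other strand.
Pklr downstream promoter: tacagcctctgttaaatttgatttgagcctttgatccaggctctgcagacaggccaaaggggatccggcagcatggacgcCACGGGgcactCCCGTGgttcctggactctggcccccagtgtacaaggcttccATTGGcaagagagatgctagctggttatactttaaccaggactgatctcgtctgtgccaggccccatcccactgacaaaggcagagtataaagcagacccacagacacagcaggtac

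The paired partial boxes, the letter pattern known as a carbohydrate response element, begin at -170 from the RefSeq start and were searched for after this promoter was seen. They occurred in 15 of 32851 promoters (0.0457%). The NF-Y box begins at -117. In duodenum Pklr was at 463, 247, 395, 395 and 465 CPM in DIO and 681, 603, 355, 648 and 575 CPM in lean, which overlapped (-0.54 ± 0.22, adjusted p = 0.189). In jejunum it was at 295, 202, 182, 255 and 246 CPM in DIO and 352, 358, 212, 352 and 374 CPM in lean (-0.47 ± 0.18, adjusted p = 0.137). Lean 3 was the lowest lean library in both segments. Without it the changes were -0.70 (adjusted p = 0.0138) in duodenum and -0.62 (adjusted p = 0.0443) in jejunum. Equal replicate numbers do not mark the same mouse. In kidney Pklr spanned 44.8 to 67.0 CPM in DIO and 36.8 to 45.9 CPM in lean (0.37 ± 0.11, adjusted p = 0.158). The Pklr change was not shown to differ between gut segments (F test, adjusted p = 0.296).

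Elsewhere Pklr was low. It was at 0 CPM in all 10 soleus libraries, which allows up to 0.103 to 0.141 CPM at a count of 3 reads per library, counting error only. In 10 tissues its mean was under the filter. In lean eWAT it was at 7.0, 0, 5.99, 0.0514 and 0 CPM, and in DIO eWAT it spanned 0 to 0.0443 CPM (-1.16 ± 0.59, limma adjusted p = 0.114). On recovered reads edgeR (adjusted p = 0.00467) and DESeq2 (0.0103) called this a fall. Those calls rest on lean 1 and 3, through which the gene passed the filter, as every other eWAT library held at most 1 read. Adrenal DIO 1 alone held 182 CPM, against at most 3.05 CPM in the other adrenal libraries. That library also held Apoa2, a liver apolipoprotein gene, at 3651 CPM and a sum of 3 hepatocyte markers of 6041 CPM. Retroperitoneal DIO 4 and lean 4 held 5.11 and 8.29 CPM of Pklr beside hepatocyte sums of 146 and 136 CPM. The part of liver RNA in these values was not tested.

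By limma the adrenal glands gave the only call outside fat, liver and jejunum. Elovl6 was at 94.3, 29.8, 43.3, 74.6 and 101 CPM in DIO and 1287, 905, 562, 722 and 407 CPM in lean adrenal libraries, without overlap, and fell by 3.51 ± 0.40 (adjusted p = 0.0128), where 0.148% of genes fell. Rescaled the change was -3.67 (adjusted p = 0.0802) and by edgeR -3.77 (adjusted p = 0.141). Without the 3 libraries lacking Hsd3b1 it was -3.15 (adjusted p = 0.0180). Leaving out DIO 3 or lean 2 or 4 in turn gave changes of -3.51 to -3.38 with adjusted p of 0.0600 to 0.0684. Acss2 was at 256, 165, 73.8, 84.7 and 97.1 CPM in DIO and 725, 752, 323, 481 and 228 CPM in lean (-1.90 ± 0.43, adjusted p = 0.261; -2.24, adjusted p = 0.0588, without those libraries). Acss1, at 19.2, 25.7, 23.1, 30.7 and 33.1 CPM in DIO and 125, 42.2, 51.8, 66.7 and 44.7 CPM in lean, did not overlap but did not pass (-1.20 ± 0.30, adjusted p = 0.267; -0.80, adjusted p = 0.198, without those libraries). Adipocyte markers in adrenal libraries summed to 1209.9 to 7358 CPM in DIO and 2223 to 8792 CPM in lean, so every library held fat markers, and their part in the fall was not tested.

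Single libraries set the mean of Elovl6 in tissues where it was low. Heart lean 3 held 181 CPM against 0.612 to 1.43 in the other 9 heart libraries, and the same library held 105 CPM of Acss2 against 25.0 to 34.1. Its adipocyte sum was 1175 CPM against 356 to 600.3 in the others. In kidney lean 3 and 5 held 50.7 and 59.0 CPM of Elovl6 against 10.1 to 17.0 in the rest, and they held adipocyte sums of 220.3 and 285 CPM. Soleus DIO 1 held 38.5 CPM against 1.22 to 4.20, with an adipocyte sum of 435 CPM that was within the range of the other DIO libraries. The part of fat tissue in these values was not tested. Elovl6 did not pass in heart (limma adjusted p = 0.999; 0.0702% of genes called), kidney (0.503; 0.0663%) or soleus (0.979; 1.24%).

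**Figure D4:**
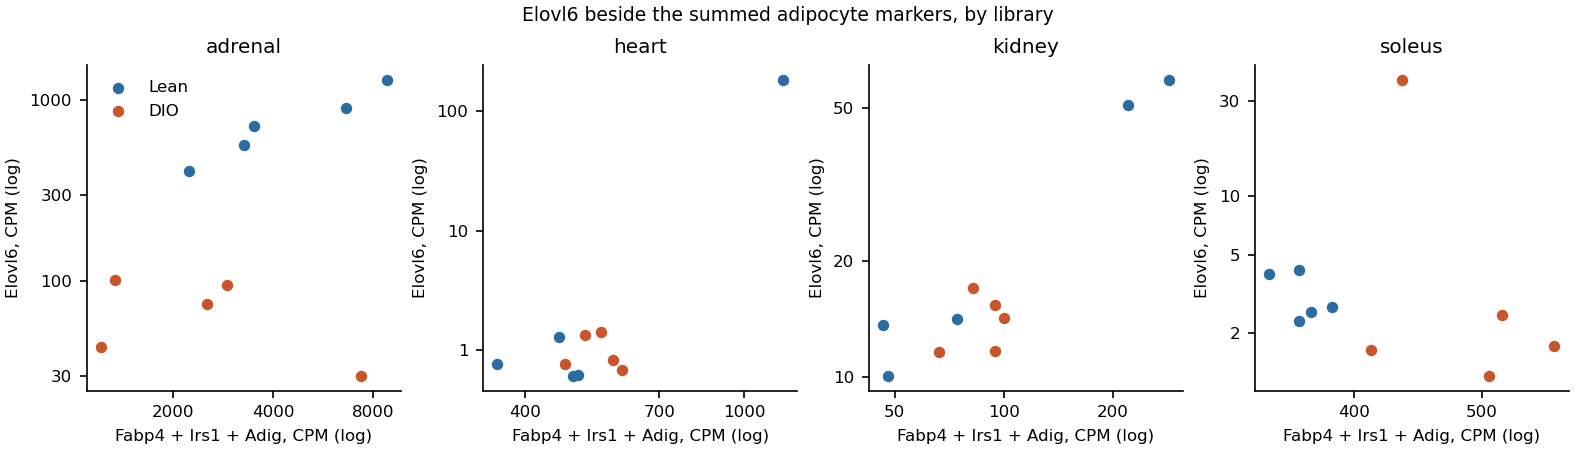
Elovl6 against the summed adipocyte markers (Fabp4, Irs1 and Adig), both as CPM on log axes, 1 point per library of adrenal, heart, kidney and soleus, coloured by diet. Heart lean 3 and kidney lean 3 and 5 are the highest within their own tissue on both axes, soleus DIO 1 is high for Elovl6 alone, and in adrenal the DIO libraries lie below the lean ones in Elovl6 over an overlapping range of marker sums.

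Along the gut Acss2 fell in jejunum, and the change of Acss1 differed between segments. Acss2 was at 29.6, 29.9, 28.8, 25.8 and 44.3 CPM in DIO and 51.7, 62.0, 46.0, 45.9 and 43.6 CPM in lean jejunum. DIO 5 overlapped the lean range, while the other DIO libraries were below it. Acss2 fell by 0.65 ± 0.16 (adjusted p = 0.0316; rescaled -0.55, adjusted p = 0.0579), with 2.98% of genes falling and 2.44% rising. Leaving out DIO 1, 3 or 4 or lean 1, 2, 4 or 5 in turn gave changes of -0.70 to -0.57 with adjusted p of 0.0512 to 0.0879. In duodenum Acss1 was at 156, 176, 149.7, 186 and 184 CPM in DIO and 79.5, 97.9, 146, 104 and 93.2 CPM in lean. The groups did not overlap, with lean 3 close to the DIO range, and the change of 0.73 ± 0.15 had adjusted p = 0.0851 in a tissue with 0.311% of genes called. Without lean 3 it was 0.86 (adjusted p = 0.00281). The Acss1 change differed between segments (F test, adjusted p = 7.1e-04; 11% of genes called). It was higher in duodenum than in jejunum by 1.11 ± 0.18 (adjusted p = 3.3e-04; 15.8%) and in colon by 0.97 ± 0.18 (adjusted p = 0.0146; 4.13%); the difference from ileum did not pass (0.74 ± 0.18, adjusted p = 0.0812; 0.0306%). For Acss2 duodenum and jejunum differed by 0.84 ± 0.24 (adjusted p = 0.0169), although the F test over all 4 segments did not pass (0.0765).

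Elovl6 in jejunum spanned 47.5 to 76.1 CPM in DIO and 67.7 to 93.2 CPM in lean (-0.39 ± 0.14, adjusted p = 0.113). Summed enterocyte markers (Fabp2 and Vil1) in jejunum were 7459 to 28308 CPM in DIO and 3441 to 9374 CPM in lean, and in duodenum 2776 to 5612 and 1632 to 4179 CPM, and their part was not tested. Over all genes in jejunum 77 rose and 94 fell, and 95 and 65 did rescaled. Of the pathway genes there 4 of 34 rose and 5 fell (rescaled 2 and 1), among them Lpgat1 at 0.996 ± 0.155, the glucose transporter gene Slc2a2 at -0.94 ± 0.18, G6pdx at -0.66 ± 0.14 and Pdha1 at -0.65 ± 0.14. Rescaled, the Slc2a2 change had adjusted p = 0.0743 and that of G6pdx 0.0515. By limma no member passed in stomach (0.0303% of genes called), ileum (0%) or colon (0%). DESeq2 called Acss1 in colon (adjusted p = 0.0336) and in duodenum (4.2e-05).

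Nr1h3 passed the test in BAT alone of 21 tissues by limma on CPM as deposited. There it was at 65.7, 63.8, 65.4, 66.9 and 62.1 CPM in DIO and 55.1, 57.9, 56.4, 54.8 and 56.2 CPM in lean libraries. The groups were tight and did not overlap. In this depot 30% of genes tested rose, and Nr1h3 rose by 0.20 ± 0.04 (limma adjusted p = 0.00250; 0.23 without DIO 5 and lean 2). The median gene in BAT moved by 0.09 in the same direction, and after rescaling the change was 0.10 (adjusted p = 0.159), so that the call depended on the scaling. In eWAT Nr1h3 spanned 91.0 to 116 CPM in DIO and 107 to 127 CPM in lean (-0.17 ± 0.11, adjusted p = 0.185), and after rescaling the change was -0.36 (adjusted p = 0.0200). It overlapped between diets in subcutaneous (0.30 ± 0.25, adjusted p = 0.456), mesenteric (0.12 ± 0.09, 0.317) and retroperitoneal fat (-0.03 ± 0.13, 0.891). The mesenteric and retroperitoneal changes lay below the median change of all genes there, 0.43 and 0.23, so the direction in CPM depends on the scaling. Without the libraries that stood apart the change was 0.14 (adjusted p = 0.180) in mesenteric and -0.06 (adjusted p = 0.810) in retroperitoneal fat. The low lean values in subcutaneous fat, 62.5 and 69.7 CPM, were those of lean 2 and 3, and without them the change was -0.03. Differences of the Nr1h3 change between white depots did not pass (0.251), nor did those over all 5 depots (0.141).

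In jejunum Nr1h3 was at 107, 74.1, 84.6, 93.1 and 82.7 CPM in DIO and 68.7, 69.3, 41.1, 56.6 and 65.1 CPM in lean libraries. Every DIO library was above every lean one, and the change of 0.56 ± 0.16 had adjusted p = 0.0530. Leaving out DIO 2 or 5 in turn gave changes of 0.58 to 0.62 with adjusted p of 0.0462 to 0.0484. In soleus the DIO range of 11.8 to 13.5 CPM lay above the lean range of 9.16 to 10.8 CPM (0.28 ± 0.06, adjusted p = 0.0697). The receptor's partners and targets were counted in each depot: of 10 tested genes 5 rose in mesenteric fat (0 after rescaling), 4 rose and 3 fell in eWAT, 4 rose and 1 fell in retroperitoneal fat and 1 rose in subcutaneous fat, and 3 of 9 rose in BAT. Of all genes tested 29.7% rose in mesenteric fat, 34.8% in eWAT, 32.2% in retroperitoneal fat, 8.77% in subcutaneous fat and 30% in BAT, and 17.4% fell in eWAT and 9.04% in retroperitoneal fat, so these counts are not read as a result about the list. Their median change was 0.60 in mesenteric fat, 0.22 in eWAT, 0.67 in retroperitoneal fat and 0.16 in BAT, beside 0.43, 0.15, 0.23 and 0.09 over all genes.

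By limma muscle and brain gave no call for any member, while DESeq2 called Nr1h3 in soleus (adjusted p = 0.0273) and Acss1 in red gastrocnemius (0.0464). In soleus, red gastrocnemius (2.63% of genes called) and EDL (0%) the member of lowest p besides Nr1h3 in soleus was Acss1 in red gastrocnemius, at 67.5 to 88.9 CPM in DIO and 52.2 to 77.1 CPM in lean (0.34 ± 0.11, adjusted p = 0.133; 0.43, adjusted p = 0.0378, without lean 5). The pathway gene Dbi, the acyl-CoA binding protein, rose in soleus (0.76 ± 0.08) and red gastrocnemius (0.66 ± 0.04), and so did Crat, a carnitine acetyltransferase (0.31 ± 0.05 and 0.29 ± 0.03), and Agpat2, of glycerolipid synthesis, in red gastrocnemius (0.61 ± 0.09). In hypothalamus (0% of genes called), cerebral cortex (0%), midbrain stem (0.0292%) and cerebellum (0%) the changes of the members tested ran from -0.17 for Nr1h3 in cerebellum to 0.13 for Elovl6 in cerebral cortex. The 6 tissues with no gene called by limma had 32 to 587 genes at an unadjusted p below 0.05, and edgeR called 0 to 2 and DESeq2 0 to 170 genes in them. The F tests called 0% of genes over the muscles and 0% over the brain regions, with 83 and 56 genes at an unadjusted p below 0.05, 0 and 0 by edgeR and 5 and 1 by DESeq2.

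The order of lean levels set the members apart by tissue. Elovl6 was highest in BAT (1839 ± 354 CPM, SD, n = 5), mesenteric fat (1645 ± 355, n = 3), adrenal (777 ± 340.1) and subcutaneous fat (577 ± 427), and lowest by mean in red gastrocnemius (1.39 ± 1.16). The adrenal mean included lean 1, its highest library at 1287 CPM, which held no Hsd3b1. Every adrenal library also held fat markers, as given above. Adrenal kept rank 3 without the libraries that stood apart. Acss2 was highest in mesenteric fat (1485 ± 111), BAT (974 ± 236) and retroperitoneal fat (892 ± 132) and lowest by mean in duodenum (39.7 ± 8.81). By medians heart was the lowest for both genes; its means, 36.9 ± 80.7 for Elovl6 and 45.1 ± 33.6 for Acss2, included lean 3, whose high values are given above. Acss1 had another order, with heart (337 ± 35.9), BAT (245 ± 34.7) and kidney (182 ± 25.7) at the top and liver (0.430 ± 0.283) at the bottom. Nr1h3 was highest in retroperitoneal fat (129 ± 26.4), eWAT (118 ± 8.01), subcutaneous fat (97.6 ± 29.4) and liver (96.3 ± 6.52) and lowest in cerebral cortex (2.97 ± 0.428). No neighbour pair in these orders passed an exact two-sided permutation test adjusted over 100 pairs (lowest adjusted p = 0.0794; 26 pairs had an unadjusted p below 0.05). With 5 against 5 libraries this test allows no unadjusted p below 0.00794. Pairs at that value had adjusted p = 0.0794, so the lack of a call does not show that neighbours were alike. Ranges did not overlap for 4 of 20 neighbour pairs of Elovl6, 2 of Acss2, 2 of Acss1, 3 of Pklr and 3 of Nr1h3. The share of such pairs over all genes is not given here, so these counts are not read as a result about the members. The breaks in Elovl6 lay below mesenteric fat, cerebellum, cerebral cortex and kidney. Those in Acss2 lay below mesenteric fat and kidney, and those in Acss1 below kidney and above liver. Pklr broke below ileum, colon and stomach, and Nr1h3 below mesenteric fat, EDL and midbrain stem.

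**Figure D5:**
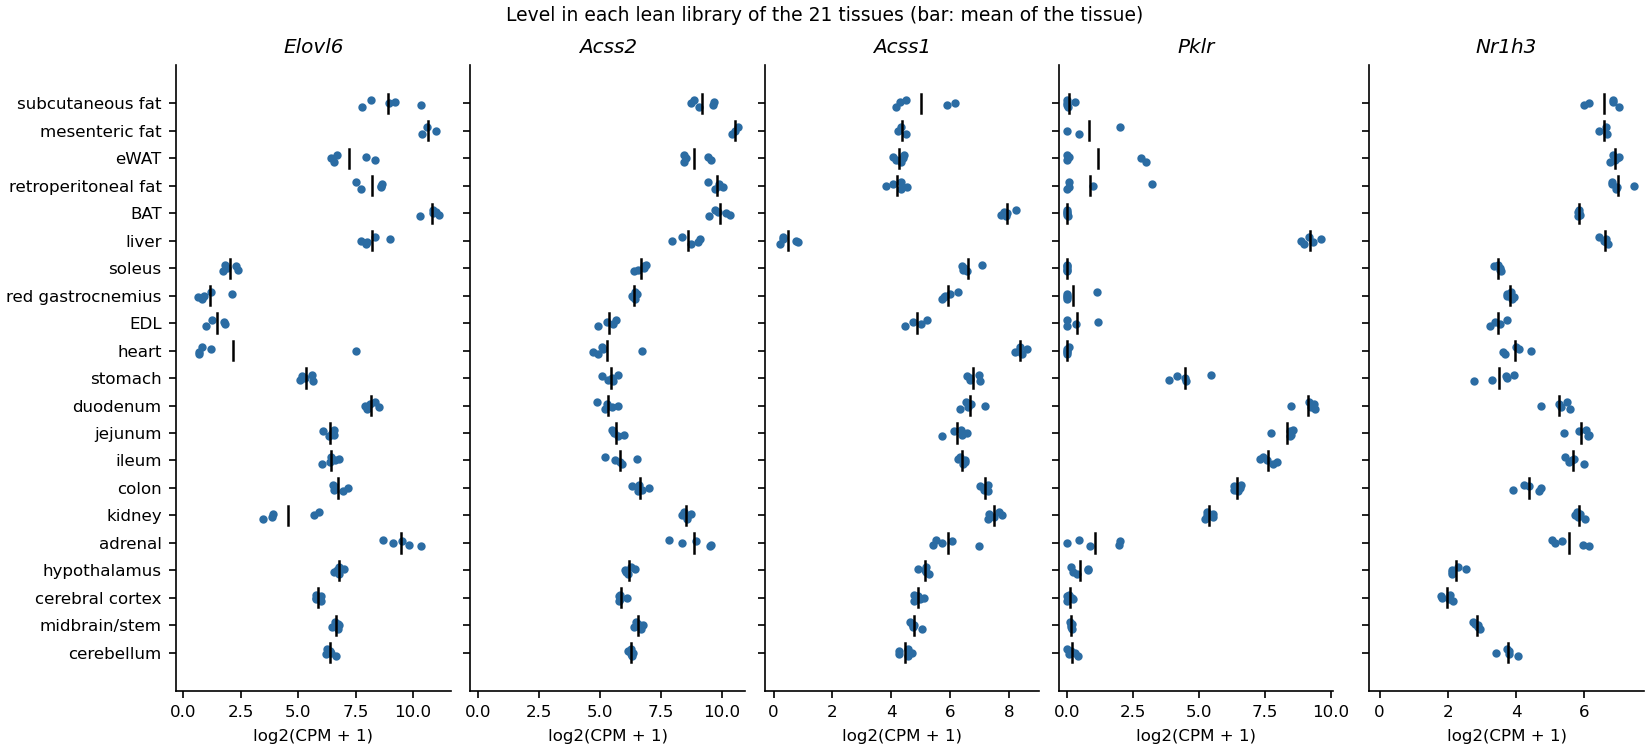
Level of each member in the lean libraries of 21 tissues, as log2(CPM + 1), with 1 point per library and a mark at the mean. Elovl6 and Acss2 peak in fat, Acss1 in heart, Pklr in liver and duodenum and Nr1h3 in fat and liver.

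Over the 21 lean tissue medians of log2(CPM + 1), Elovl6 and Acss2 had a Pearson r of 0.636, Acss2 and Nr1h3 0.685, and Elovl6 and Nr1h3 0.52, while Acss2 and Acss1 had -0.328. Among 3463 genes, those most like Elovl6 by Pearson r were Hsd17b12 (r = 0.948), the ketoacyl-CoA reductase that acts after the elongase, Rtf2 (0.913) and Rpe (0.896). For Acss2 they were Hsd11b1 (0.889), which activates glucocorticoids, Arhgap29 (0.879) and G0s2 (0.879). Acss1 was most like Cox5b (0.823), a subunit of cytochrome c oxidase, Mrps9 (0.792), a mitochondrial ribosomal protein, and Ptges2 (0.715). Pklr was most like Entpd8 (0.988), Pigr (0.981) and Slc10a5 (0.967). Nr1h3 was most like Cflar (0.924), Aco1 (0.905) and the catalase gene Cat (0.893). By Spearman's rho the places differed: Ptges2 came 57 and Mrps9 15 for Acss1, Slc10a5 72 and Pigr 25 for Pklr, and G0s2 11 for Acss2, counted from the most similar gene. The points of these correlations may share mice. They describe the 21 tissues only. Hsd17b12 also fell with Elovl6 in mesenteric fat (-1.36 ± 0.15), retroperitoneal fat (-0.66 ± 0.18) and BAT (-0.49 ± 0.09) but rose in liver (0.48 ± 0.09); these changes were singled out after the values were seen.

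In GENCODE M21 on GRCm38, Elovl6 (ENSMUSG00000041220) lies at chr3:129532355-129638495 on the plus strand, Acss2 (ENSMUSG00000027605) at chr2:155517948-155585724 on the plus strand, Acss1 (ENSMUSG00000027452) at chr2:150618105-150668500 on the minus strand, Pklr (ENSMUSG00000041237) at chr3:89136142-89146784 on the plus strand and Nr1h3 (ENSMUSG00000002108) at chr2:91184061-91202834 on the minus strand. All are protein coding, and CPM is a sum over the whole gene. Acss2 overlaps Ggt7 and Gss on the other strand, which reached 146 and 292 CPM, and Pklr overlaps Hcn3, which reached 34.7 CPM. The libraries came from a stranded kit, but the strand setting of the counting is not given in the sources used here, so reads of overlapping genes may not be told apart.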

How the data were processed

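RNA of 21 tissues was sequenced as paired ends on a HiSeq 2000 after a TruSeq stranded kit, per the labels' protocols. Per the submitters' processing notes STAR, HTSeq, FastQC and DESeq2 were used. The genome build, strand option and aligner options were not given in the sources used here, and gene positions are those of GENCODE M21. The authors deposited 1 table of CPM values per Ensembl gene, reads scaled to the library total. Of its IDs, 13139 of 13153 matched symbols of GENCODE M21; 1 incomplete line and 1 column that matched no library were not used. Dividing each CPM by the value of 1 read gave whole reads for 100.0% of values within 0.001 read, so the reads were recovered for count tests. Library totals, recovered this way, are given above, and precision is limited by them at low CPM. Of 398 pairs of replicates, the closest differed by a chi-square of 3.48 per degree of freedom, so no library appeared as a copy of another.

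Diets were compared within each tissue with limma 3.58.1 in R 4.3.3 on log2(CPM + 1), with a mean-variance trend, for genes whose mean reached 1 CPM, by Benjamini-Hochberg adjusted p below 0.05. An F test of the diet by tissue terms compared changes between tissues, and ratios and lean orders by exact permutation tests. limma called 6626 gene and tissue pairs (4896 rises, 1730 falls), edgeR 4.0.16 on recovered reads 5874 (2987 and 2887), DESeq2 1.42.0 8103 (4172 and 3931), and limma on values rescaled by median-of-ratios factors 5811 (3027 and 2784). The steps were tried on simulated data. Alternatives were pseudocounts of 5 and 0.25, a filter of 10 CPM or none, rescaling, array weights, 1 fit over all libraries, edgeR, DESeq2, leaving out each library, leaving out the 10 libraries named above, and a 10-gene index as covariate.

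The members, lists and markers were chosen with earlier results of these data known. The 5 members are given in every tissue, at most 4 listed genes a tissue by lowest p, and for each member the 3 genes of most similar lean medians. Promoters are from the RefSeq table of 300 bases a start. Marker lists covered adipocytes, macrophages, lymphoid cells, skeletal muscle, hepatocytes, enterocytes and adrenal cortex, whose levels stand beside the results, and 3 single genes: the colonocyte gene Car1 (4095 to 13135 CPM in colon), the neuron gene Snap25 (1539.7 to 2331 CPM in cerebellum) and Wt1 of mesothelium and kidney (6.69 to 16.6 CPM in kidney).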

Additional observations from a re-analysis of the deposited data

Results flagged for a closer look

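In 19 of 179 groups of 4 or 5 libraries (10.6%) 1 library lay further from the rest than Dixon's 95% value allows, 16 at the high and 3 at the low end. Chance does so in about 1 of 20 groups. For Elovl6, soleus DIO 1 held 38.5 CPM against 1.22 to 2.47 in the other libraries of its group, red gastrocnemius lean 4 held 3.40 CPM against 0.568 to 1.35, and heart lean 3 held 181 CPM against 0.612 to 1.30. The same heart library was apart for Acss2, where lean 3 held 105 CPM against 25.0 to 34.1. For Acss2, retroperitoneal DIO 3 held 75.0 CPM against 172 to 203, jejunum DIO 5 held 44.3 CPM against 25.8 to 29.9, colon DIO 5 held 103 CPM against 69.3 to 79.0 and cerebral cortex lean 3 held 67.6 CPM against 53.9 to 55.8. Acss1 had 1 such library in each diet in soleus, where DIO 4 held 174 CPM against 97.4 to 113 and lean 5 held 137 CPM against 84.4 to 95.5.

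Pklr had 6 such libraries. In eWAT DIO 2 held 0.0443 CPM, which is 1 read, against 0 in each of the others. In retroperitoneal fat DIO 4 held 5.11 CPM against 0 in each of the others, and lean 4 held 8.29 CPM against 0 to 1.01. In stomach lean 5 held 42.4 CPM against 13.5 to 21.7, and in jejunum lean 3 held 212 CPM against 352 to 374. In adrenal DIO 1 held 182 CPM against 0 to 0.968. For Nr1h3, retroperitoneal lean 3 held 175 CPM against 112 to 123, stomach DIO 4 held 6.23 CPM against 6.82 to 6.94, and ileum DIO 5 held 55.9 CPM against 46.0 to 47.1.

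Diet effects that differed between tissues gave 10 adjusted p-values below 0.05 by limma's F test. Between the 4 white depots these were 0.00273 for Acss1, 0.0194 for Acss2 and 0.0203 for Elovl6. With BAT added they were 2.0e-04, 0.00519 and 7.7e-05, and with liver as well 8.4e-05, 1.7e-05 and 6.4e-08, in the same order of genes. These families share libraries and are not independent. Acss1 was under the filter in liver, so its value with liver added does not compare liver with fat. Along the intestine the value was 7.1e-04 for Acss1.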

How the results depend on the processing

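Tissues could not be paired by mouse because no label ties a library to a mouse. The F tests and the differences between tissues therefore treat libraries of different tissues as independent, although these may share mice. The falls of Elovl6 in the 5 fat depots, of Acss2 in all of them but subcutaneous fat, and the rise of Acss1 in eWAT passed under every alternative run, each left-out library included. For the values below that changed side of the threshold or direction, the cause was not tested. With no filter the change was -1.11 for Acss2 in subcutaneous fat (adjusted p = 0.0558), -0.29 for Acss1 in BAT (0.0709), -0.43 for Pklr in liver (0.0938) and -0.65 for Acss2 in jejunum (0.0593), and the F test of Elovl6 over white depots gave 0.0512. Acss1 then fell in 0 tissues and Pklr in 0 by limma. Rescaled, Nr1h3 in BAT changed by 0.10 (0.159), Elovl6 in adrenal by -3.67 (0.0802) and Acss2 in jejunum by -0.55 (0.0579), Nr1h3 rose in 0 tissues and fell in 1, and its F test over liver and fat gave 0.0427. With edgeR, Nr1h3 in BAT changed by 0.0937 (0.169) and Elovl6 in adrenal by -3.77 (0.141), Pklr fell in 2 tissues, Nr1h3 rose in 0 and fell in 1, and Pklr over liver and fat gave 0.0452. With DESeq2, Nr1h3 in BAT changed by 0.10 (0.177), Acss1 rose in 3 and fell in 3 tissues, Pklr fell in 2, and Nr1h3 rose in 2 and fell in 2.

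With array weights, Pklr in liver changed by -0.33 (0.0750), and Elovl6 turned to -0.21 in soleus and 0.18 in heart. Acss1 then rose in 4 and fell in 4 tissues, Pklr rose in 1 and fell in 3, and Nr1h3 rose in 3 and fell in 1. The F tests with weights gave 0.0320 for Pklr over white depots, 0.0268 for Nr1h3 with BAT, 0.00198 for Acss2 and 0.0240 for Pklr along the intestine, and 0.00712 for Nr1h3 and 0.00768 for Pklr over liver and fat. With the index as covariate, Acss2 in subcutaneous fat changed by -1.22 (0.0506), Elovl6 in liver by -0.41 (0.593), Pklr in liver by -0.18 (0.745) and Elovl6 in soleus by -0.23. Acss2 then rose in 1 tissue, Pklr fell in 0 and Nr1h3 rose in 3. In 1 fit over all libraries, Nr1h3 in BAT was at 0.20 (0.591), Acss1 in BAT at -0.29 (0.402), Pklr in liver at -0.43 (0.873), Elovl6 in liver at -0.79 (0.429) and Acss2 in jejunum at -0.65 (0.0503). Acss1 rose in 3 and fell in 2 tissues and Nr1h3 fell in 1 there. With a filter of 10 CPM Nr1h3 rose in 2. Liver ranked 2 for Pklr by medians.

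Without the 10 libraries named above, Acss1 rose in 2 and fell in 2 tissues. The ratio of Acss2 over Acss1 passed in 0 tissues, at -2.93 in eWAT, -2.51 in retroperitoneal fat, -1.25 in BAT, -0.69 in stomach and -0.54 in duodenum, with the smallest p of the family set by fewer libraries. In subcutaneous fat, where the ratio had not passed, it turned to -0.42. Among differences between pairs of tissues that had not passed, those that changed sign were 0.18 for Elovl6 in subcutaneous minus retroperitoneal fat, -0.23 for Acss1 in mesenteric fat minus eWAT, -0.0175 for Acss2 in eWAT minus retroperitoneal fat and, for Nr1h3, -0.17 in subcutaneous minus mesenteric fat, 0.26 in BAT minus subcutaneous fat and 0.00934 in liver minus subcutaneous fat. Leaving out each library in turn gave -1.22 to -0.98 for Acss2 in subcutaneous fat, -0.34 to -0.21 for Acss1 in BAT, -0.52 to -0.33 for Pklr and -0.91 to -0.60 for Elovl6 in liver, -3.72 to -3.25 for Elovl6 in adrenal, -0.78 to -0.57 for Acss2 in jejunum and -0.58 to 0.46 for Elovl6 in soleus, where DIO 1 set the direction. Counting only calls that held in every such fit, Acss1 and Pklr fell in 0 tissues by limma. For the ratio, 1 replicate number of a diet was left out of every tissue at once, in 10 fits. It then passed in 0 tissues, over -3.28 to -2.64 in eWAT, -3.10 to -2.49 in retroperitoneal fat, -1.51 to -1.22 in BAT, -0.73 to -0.63 in stomach and -0.61 to -0.48 in duodenum. With 4 against 5 libraries in these tissues no lower adjusted p than 0.0635 was possible here, so these fits cannot say whether a call rests on 1 library. F tests ran from 0.00948 to 0.0607 for Acss2 over white depots (not passing without subcutaneous DIO 1 or 3), 0.0100 to 0.0618 for Elovl6 (not without mesenteric lean 2), 0.0411 to 0.231 for Nr1h3 with BAT and 0.0238 to 0.181 with liver (passing without subcutaneous lean 1), and 0.0205 to 0.177 for Acss2 along the intestine (passing without duodenum lean 3, jejunum DIO 5 or ileum lean 4 or 5). The counts of pathway genes rescaled or without the 10 libraries, and the pairwise differences and subcutaneous ratio without them, were chosen after seeing the data. In the shallowest library 1 CPM is about 6.58 reads, so small differences near 1 CPM were not detectable at this depth.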
